A study of Mus musculus with 6 samples.

Results

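The genes of plasminogen activation and of the serpins around it were described in mammary epithelial organoids of Wwox KO and WT mice. Members were taken by symbol: Plau, Plaur, Plat, Serpine2, Serpinb2, Serpinb5, Serpinf1 and Serping1, with every probe set whose annotation carries exactly that symbol. This gave 7 of the 18193 genes that the array names through a probe set with 1 symbol, read by 13 of 45037 probe sets. No probe set carries the symbol Serpine2 in the annotation used here, so that gene, which encodes protease nexin-1, was not analysed here.

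Urokinase, the product of Plau, cleaves the zymogen plasminogen into plasmin, a broad protease that dissolves fibrin, degrades matrix proteins and activates latent metalloproteinases. It does so at the cell surface, where the receptor encoded by Plaur holds it, whereas the tissue activator encoded by Plat works mainly on fibrin. Serpins are proteins of a shared fold, most of which trap a protease irreversibly. In the mammary gland, plasminogen activation is known for matrix remodelling during ductal growth and involution.

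The KO arrays, KO5, KO6 and KO7, held RNA of 3 mice of the genotype BK5-cre +; WWOX flox/flox, and the WT arrays, WT1, WT2 and WT3, that of 3 mice of the genotype BK5-cre -; WWOX flox/flox. All 6 mice were 8 weeks old and of a mixed background (129/J; C57BL/6), and both groups carried floxed Wwox alleles. BK5 is the bovine keratin 5 promoter, which drives Cre in precursors of keratin 5 positive epithelia, in the skin as well as in the mammary gland. Since the WT mice had no Cre, Cre itself and the loss of Wwox cannot be told apart. Organoids are the epithelial fragments left after the gland is digested. Each array (an Affymetrix mouse genome array) held the RNA of 1 mouse, so the spread within a group is that between mice, and the number of arrays limits the precision.

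The values are log2 values made by the authors with RMA, a method that corrects the background, brings the arrays to one distribution and summarises the probes of a probe set. The text speaks of a call, and of a gene that rose or fell, where limma gave an unadjusted p under 0.01 together with a difference of 2-fold or more. Each adjusted p is that of limma after the Benjamini-Hochberg procedure, applied to the 45037 probe sets together. To give a gene a single value, its brightest probe set stands for it, the one whose mean over the 6 arrays is highest.

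Wwox was at 6.23, 5.87 and 5.96 in KO, against 7.77, 7.63 and 7.72 in WT, on its brightest probe set (log2 change -1.69, adjusted p = 0.0228). Where this probe set lies relative to the floxed exon 1 is not given in the sources used here. RNA quality moved with the groups. Gapdh and β-actin are control transcripts with probe sets at both ends, and the 3' value minus the 5' value, averaged over both, was 0.55, 0.60 and 0.54 on the log2 scale in KO, against 0.96, 2.13 and 1.80 in WT. Every KO array therefore lay below every WT array, and WT1 was the WT array nearest to KO (exact permutation test, two-sided, p = 0.1, the smallest that 3 against 3 allow). The same measure for Tfrc, the transferrin receptor, was 1.74 ± 0.12 in KO and 2.03 ± 0.07 in WT, without overlap (exact permutation p = 0.1). Pyruvate carboxylase (Pcx) went the other way with overlapping groups, 2.83 ± 0.38 in KO and 2.22 ± 0.67 in WT (exact permutation p = 0.3). The control probe set at the 5' end of 18S rRNA read 9.98 ± 0.52 in KO and 6.87 ± 0.69 in WT (SD, n = 3 each; exact permutation p = 0.1). RNA quality and genotype cannot be told apart in this design. The log2 of the summed linear levels of 7 luminal markers was 16.12 to 16.22 in KO and 16.01 to 16.22 in WT, and that of 7 basal markers 13.66 to 13.99 in KO and 13.58 to 13.92 in WT. The luminal sum is weighted to Krt8, Krt18 and Epcam, and the basal sum to Acta2. Of the luminal markers 4 were higher in KO and 3 lower, with Elf5 (-0.63) among the lower. Of the basal markers 5 were higher and 2 lower, with Trp63 (-0.40) among the lower. None of these epithelial markers was called.

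Plau, the gene of urokinase, rose 3.96-fold in KO on its brightest probe set, and a probe set of Serpinf1, the gene of the secreted serpin PEDF, rose 2.58-fold. The tissue-type activator Plat, the urokinase receptor Plaur, the inhibitors Serpinb2 and Serping1 and the maspin gene Serpinb5 were not called on any probe set. In KO, 9 of the 13 probe sets had the higher mean and 4 the lower one. The 2 called (15.4%) were both higher in KO, beside 1.69% of all probe sets called higher. By limma, 0 of the 13 fell, beside 0.3% of all probe sets, and 0 had an unadjusted p under 0.05 with a lower value in KO. The groups did not overlap in 3 of the 13, beside 24.3% of all probe sets. By limma, 0 of the 13 passed an adjusted p under 0.05, 3 passed an unadjusted p under 0.05, beside 19.3% of all probe sets, and over all probe sets 100 passed the adjusted limit. On the brightest probe set of each gene, 1 of 7 members was called higher, Plau, and 0 lower, beside 0.517% and 0.462% of 18193 genes. The median log2 change was 0.18 over the 13 probe sets and -0.03 over all probe sets. In bulk RNA, a change in the number of cells of a type and a change of RNA per cell cannot be told apart.

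**Figure D1:**
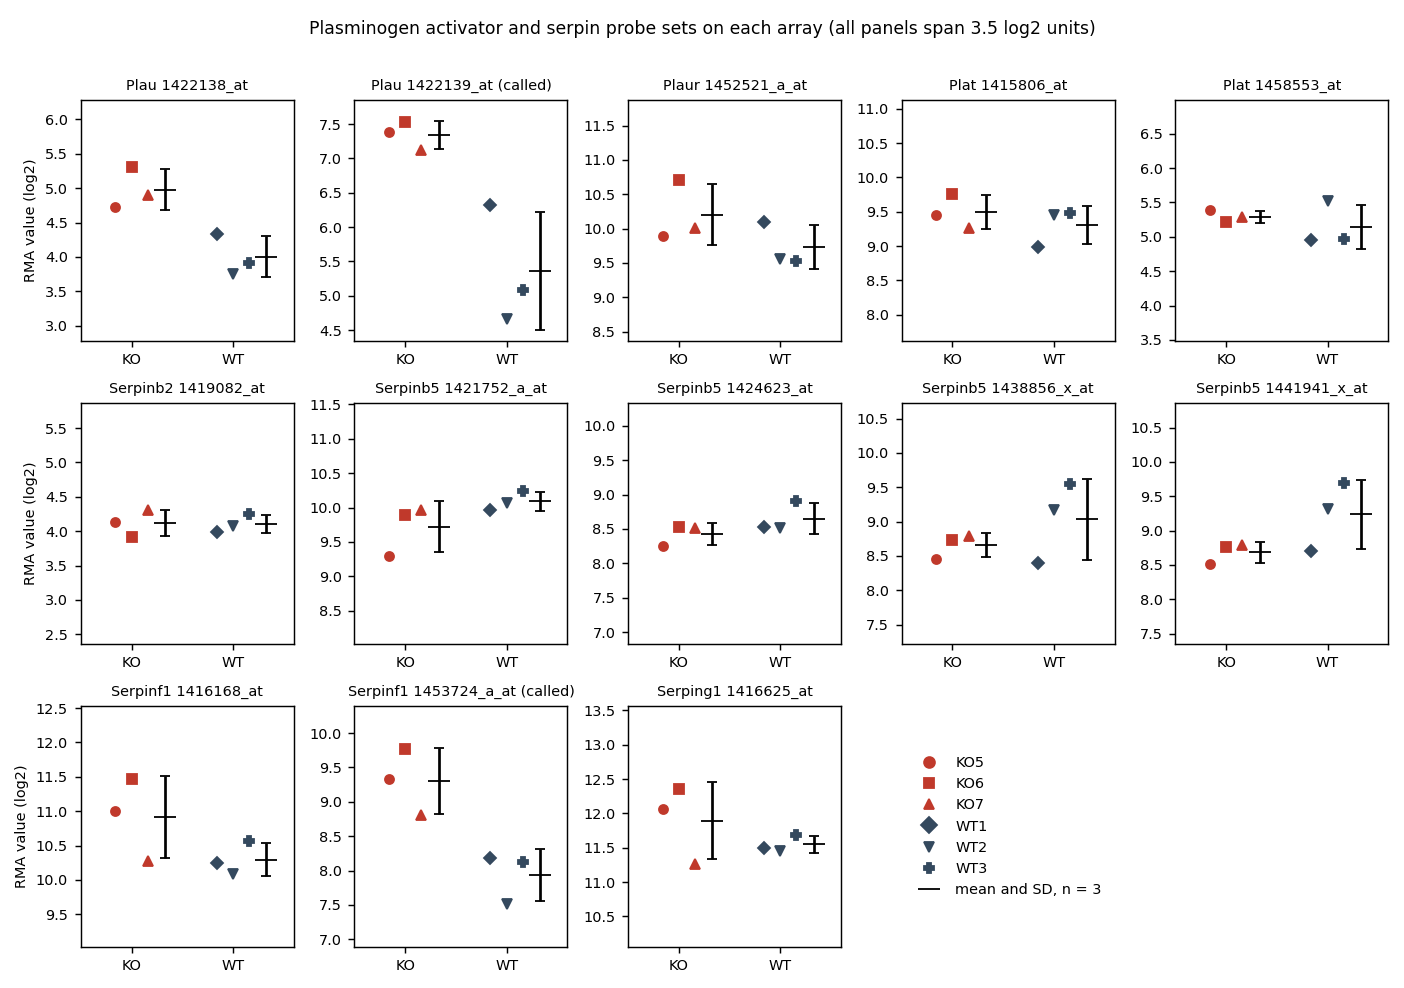
RMA log2 value (y axis) of each of the 13 probe sets on the 3 KO arrays (red) and the 3 WT arrays (dark blue), with the mean and SD of each group as a bar; all panels span the same log2 range. KO and WT do not overlap in both Plau panels and in Serpinf1 1453724_a_at, and overlap in the other 10.

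**Figure D2:**
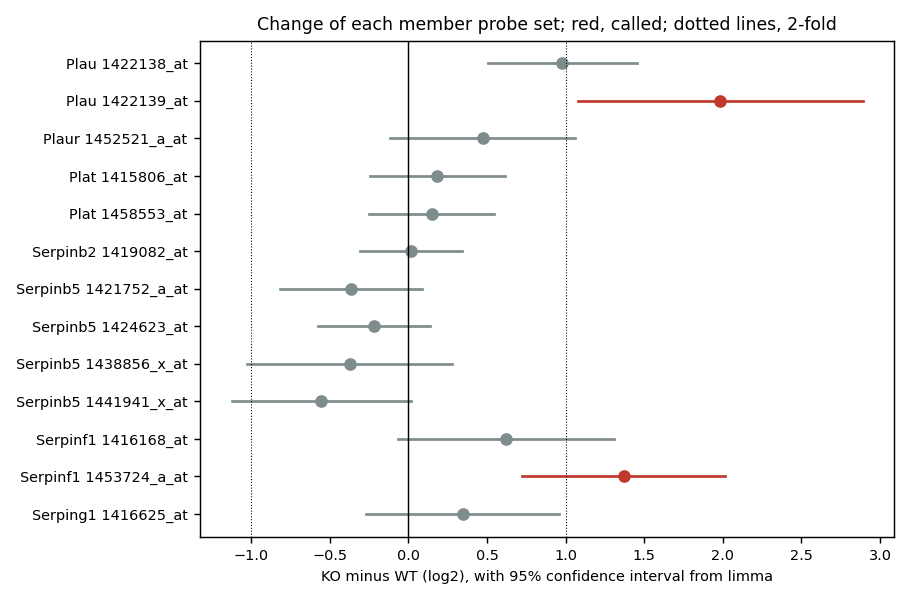
Log2 change, KO minus WT, with its 95% confidence interval from limma (x axis), of each probe set (y axis); called probe sets are red and dotted lines mark 2-fold. Plau 1422139_at at 1.98 and Serpinf1 1453724_a_at at 1.37 were called, and the intervals of the 4 Serpinb5 probe sets include 0.

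Upstream sequences are shown for 3 members that differ in what they did on the arrays: Serpinf1, with a probe set that rose, Plaur, the receptor, and Serpinb5, lower in KO on all its probe sets but not called. They are the 250 bases before the RefSeq start site, read 5′ to 3′ on the strand of the gene, from the RefSeq table of build GRCm38.p6. That table matched 5 of the 8 symbols. Plau, Plat and Serping1 were not matched. Short motifs were searched on both strands, and capitals mark the matches. The motifs were that of AP-1 (TGACTCA), the GC box (GGGCGG), that of STAT factors (TTCNNNGAA) and the TATA box (TATAAA), present in 4.46%, 32.7%, 7.02% and 12.4% of all 32851 upstream windows of the table.
Serpinf1 (chr11:75422624-75422873, minus strand): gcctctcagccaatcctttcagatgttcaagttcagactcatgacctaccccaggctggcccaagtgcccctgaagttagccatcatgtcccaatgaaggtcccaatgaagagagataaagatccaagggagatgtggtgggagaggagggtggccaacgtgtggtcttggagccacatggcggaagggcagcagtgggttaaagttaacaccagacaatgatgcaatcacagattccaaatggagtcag
Plaur (chr7:24462233-24462482, plus strand): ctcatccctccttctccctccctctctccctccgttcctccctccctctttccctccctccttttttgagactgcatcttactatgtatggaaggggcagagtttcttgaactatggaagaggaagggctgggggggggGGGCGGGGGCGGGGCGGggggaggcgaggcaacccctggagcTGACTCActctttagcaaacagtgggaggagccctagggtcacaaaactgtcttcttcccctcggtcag
Serpinb5 (chr1:106860925-106861174, plus strand): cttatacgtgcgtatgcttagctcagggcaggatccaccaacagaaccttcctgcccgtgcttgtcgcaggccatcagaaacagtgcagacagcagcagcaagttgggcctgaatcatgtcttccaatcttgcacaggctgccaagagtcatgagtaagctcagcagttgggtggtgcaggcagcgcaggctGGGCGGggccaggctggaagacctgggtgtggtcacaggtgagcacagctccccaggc
The Serpinf1 window held none of these letters. The Plaur window held 1 AP-1 motif, 69 to 63 bases before the start site, and 3 GC boxes between 111 and 95 bases before it, the last 2 of which share a base. The Serpinb5 window held 1 GC box, 58 to 53 bases before the start site. Of the windows not shown, that of Serpine2 held 6 GC boxes, and both windows of Serpinb2 a TATA motif, with a STAT motif in one of them. These are matches of letters only.

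Plau, the gene of urokinase, gave the largest change among the members. Its brightest probe set, 1422139_at, was at 7.39, 7.52 and 7.12 in KO5, KO6 and KO7, against 6.32, 4.67 and 5.09 in WT1, WT2 and WT3. The KO arrays lay close together and all above the WT arrays, which were spread out with WT1 highest. WT2 and WT3 lay below the median of every array (5.42 to 5.47). The rise was 1.98 in log2 (standard error 0.39, 95% interval 1.08 to 2.89, 3.96-fold, adjusted p = 0.0675). The group means were 7.34 ± 0.21 in KO and 5.36 ± 0.86 in WT (SD, n = 3 each).

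The other Plau probe set, 1422138_at, was at 4.73, 5.31 and 4.90 in KO5, KO6 and KO7, against 4.33, 3.75 and 3.92 in WT1, WT2 and WT3. Again no KO array reached down to a WT array, and WT1 was the highest of its group. All these values lay below the median of every array (5.42 to 5.47), so this is a dim probe set. The difference was 0.98 in log2 (standard error 0.20, 95% interval 0.50 to 1.45, 1.97-fold, adjusted p = 0.0742). This was just short of 2-fold and was not called. Of 18 other settings 6 called it, namely without WT1 (1.14), without KO5 (1.10), without KO7 (1.02), centred on ribosomal protein genes (1.05), and against WT2 alone (1.23) or WT3 alone (1.06). Both probe sets pointed the same way, with unequal sizes. Per array, the first minus the second was 2.36 ± 0.25 in KO and 1.36 ± 0.56 in WT (SD, n = 3 each; exact permutation test, two-sided, p = 0.1, the smallest possible, and 0.3 adjusted over 9 pairs of probe sets of a member). Where each lies on the transcript is not given in the sources used here.

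Among the WT arrays Plau was ordered as RNA quality was. WT1, whose control transcripts were the nearest to KO, had the highest Plau value of the WT arrays on both probe sets, and WT2, the farthest, had the lowest. With the 3' to 5' difference of Gapdh and β-actin as a covariate (the Gapdh covariate from here on), the change of 1422139_at was 0.48 and not called, and with the mean of 4 control transcripts it was 1.17 and not called. It was not called with unmoderated variances either, at an adjusted p of 0.28. Against WT1 alone it was 1.02, against WT2 alone 2.68 and against WT3 alone 2.25, called each time, comparisons chosen after seeing the data. Leaving out 1 array at a time gave 1.64 to 2.46, called each time. The part of RNA quality in the Plau difference was not tested beyond these fits.

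**Figure D3:**
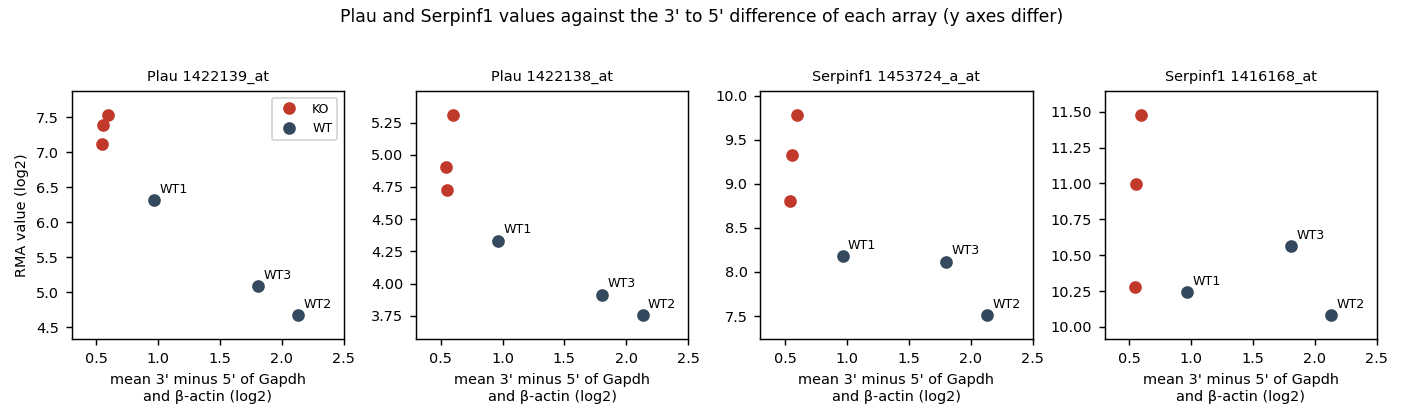
RMA log2 value of the Plau and Serpinf1 probe sets (y axes differ) against the 3' to 5' difference of each array, averaged over Gapdh and β-actin (x axis, log2), with KO arrays in red and WT arrays in dark blue. KO arrays sit between 0.54 and 0.60 on the x axis, WT1 at 0.96, WT3 at 1.80 and WT2 at 2.13, and the Plau values of the WT arrays run down in that order.

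Plat, which encodes the tissue-type activator, was not called on either probe set. Its brightest probe set, 1415806_at, was at 9.46, 9.76 and 9.27 in KO, against 8.99, 9.45 and 9.49 in WT. The lowest WT array was WT1, and the other 4 values besides KO6 lay within the range that KO and WT shared. The difference was 0.18 (standard error 0.18, 95% interval -0.25 to 0.62, adjusted p = 0.638). It was larger with the Gapdh covariate, 0.67, and with 4 control transcripts, 0.54, and called in neither. Plat 1458553_at was at 5.38, 5.21 and 5.28 in KO, against 4.96, 5.52 and 4.96 in WT, with a difference of 0.15 (95% interval -0.25 to 0.55, adjusted p = 0.691). Its KO values lay inside the WT range. The difference of 1458553_at was 0.55 with the Gapdh covariate and 0.30 with 4 control transcripts, called in neither.

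Plaur, the gene of the urokinase receptor, was higher on average in KO with overlapping groups. Its single probe set, 1452521_a_at, was at 9.895, 10.709 and 10.003 in KO5, KO6 and KO7, against 10.101, 9.562 and 9.527 in WT1, WT2 and WT3. KO6 was the highest array, and WT1 lay above both other KO arrays. The difference was 0.47 (standard error 0.25, 95% interval -0.12 to 1.06, 1.39-fold, adjusted p = 0.356). It was 0.22 without KO6, 0.66 without WT1, and -0.03 with the Gapdh covariate, and was called in none of the 19 settings fitted. As for Plau, the WT array nearest to KO in RNA quality had the highest WT value.

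Serpinb2 encodes PAI-2, an inhibitor of both activators. Its probe set 1419082_at was at 4.14, 3.92 and 4.30 in KO, against 3.98, 4.08 and 4.25 in WT, below the median of every array (5.42 to 5.47). The arrays of both groups were interleaved. The difference was 0.02 (standard error 0.14, 95% interval -0.31 to 0.34, adjusted p = 0.964). Of its neighbours on the chromosome, Serpinb7, Serpinb8 and Serpinb11 differed by 0.06, -0.15 and 0.03, none of them called.

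Serpinb5 encodes maspin, a serpin that is not known as a classical protease inhibitor and that myoepithelial cells of the gland express. Its brightest probe set, 1421752_a_at, was at 9.30, 9.90 and 9.97 in KO5, KO6 and KO7, against 9.96, 10.07 and 10.24 in WT1, WT2 and WT3. KO5 was the lowest array, and KO7 just exceeded WT1. The difference was -0.37 (standard error 0.19, 95% interval -0.82 to 0.08, adjusted p = 0.349).

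The other 3 Serpinb5 probe sets pointed the same way without a call. Probe set 1441941_x_at was at 8.51, 8.76 and 8.79 in KO, against 8.70, 9.32 and 9.70 in WT, a difference of -0.56 (95% interval -1.12 to 0.01, adjusted p = 0.270). WT1 lay within the KO range there, and WT2 and WT3 above it. Probe set 1438856_x_at was at 8.46, 8.74 and 8.79 in KO, against 8.39, 9.16 and 9.55 in WT, a difference of -0.37 (adjusted p = 0.511), and 1424623_at differed by -0.22 (adjusted p = 0.483). The suffix x marks probe sets that can bind other transcripts too. With the Gapdh covariate both x probe sets were higher in KO, 1441941_x_at by 0.15 and 1438856_x_at by 0.48, neither called, while 1421752_a_at and 1424623_at kept their direction. Against WT3 alone, 1441941_x_at differed by -1.01 and was called. The pairs of Serpinb5 probe sets gave exact permutation p values of 0.1 to 1.0, two-sided, for a difference between their changes. Of 7 basal markers, Krt5 among them, 0 kept the groups apart, beside 24.3% of all probe sets, so 0 of 7 does not set these markers apart.

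Serpinf1 encodes PEDF, a secreted serpin without known protease inhibition that blocks vessel growth. Its called probe set, 1453724_a_at, was at 9.33, 9.78 and 8.81 in KO5, KO6 and KO7, against 8.18, 7.51 and 8.12 in WT1, WT2 and WT3. All KO arrays lay above all WT arrays, with KO7 nearest to them. The rise was 1.37 in log2 (standard error 0.28, 95% interval 0.72 to 2.02, 2.58-fold, adjusted p = 0.0707). The group means were 9.30 ± 0.48 in KO and 7.93 ± 0.37 in WT (SD, n = 3 each).

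The brightest Serpinf1 probe set, 1416168_at, was at 11.00, 11.47 and 10.28 in KO5, KO6 and KO7, against 10.24, 10.08 and 10.56 in WT1, WT2 and WT3. KO7 lay inside the WT range and WT3 above KO7. The difference was 0.62 (standard error 0.29, 95% interval -0.06 to 1.31, 1.54-fold, adjusted p = 0.302) and was not called. It was 0.34 without KO6 and 0.94 without KO7, again not called. Per array, 1416168_at minus 1453724_a_at was 1.61 ± 0.13 in KO and 2.36 ± 0.26 in WT (SD, n = 3 each; exact permutation test, two-sided, p = 0.1, adjusted p = 0.3). The suffix a marks a probe set that reads several transcripts of the gene.

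The called Serpinf1 change was 0.90 with the Gapdh covariate and 1.30 with 4 control transcripts, and not called in either. Unmoderated variances left it uncalled, at an adjusted p of 0.28, as did the comparisons with WT1 alone, at 1.12, and with WT3 alone, at 1.18. Leaving out 1 array at a time gave 1.13 to 1.62, called each time. Fibroblast markers were higher as a sum, but did not all move together. The log2 of their summed level was 15.03 to 15.50 in KO and 14.72 to 14.84 in WT. This sum is weighted to the brightest markers, Col3a1, Col1a2 and Dcn. Of the 8, 6 were higher in KO, of which 1, Col1a1, was called. Pdgfra (-0.18) and Thy1 (-0.53) were lower, with overlapping groups. Within KO the order KO6, KO5, KO7 was the same for this sum, for both Serpinf1 probe sets and for Serping1. Plau 1422139_at and Plat 1415806_at had that order too, so it is not particular to them. Within WT the sum ran WT3, WT1, WT2 from high to low, and the called Serpinf1 probe set WT1, WT3, WT2. The part of fibroblast RNA in the Serpinf1 change was not tested. Endothelial markers summed to 13.18 to 13.65 in KO and 12.55 to 13.03 in WT, with 8 of 8 higher in KO and 1, Cldn5, called. Pericyte markers summed to 12.51 to 12.73 in KO and 12.08 to 12.39 in WT, with 5 of 5 higher in KO and 0 called. The part of either cell type in the Serpinf1 change was not tested.

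Serping1 encodes the C1 inhibitor, which blocks the complement proteases C1r and C1s, plasma kallikrein and factor XII. Its probe set 1416625_at was at 12.06, 12.35 and 11.27 in KO5, KO6 and KO7, against 11.50, 11.46 and 11.69 in WT1, WT2 and WT3. KO5 and KO6 lay above all WT arrays and KO7 below them. The difference was 0.34 (standard error 0.26, 95% interval -0.27 to 0.96, adjusted p = 0.523). It was 0.11 without KO6 and 0.66 without KO7, and called in neither.

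Across the 13 probe sets KO6 was the highest KO array in 8 and KO5 in 1. WT1 was the highest WT array in 4, among them both Plau probe sets, Plaur and the called Serpinf1 probe set, and the lowest in 6. Genes next to the members on the chromosome were not called. Of 26 measured neighbours within 2 genes of the 7 members, 0 were called, 12 were higher and 14 lower in KO. Of all 18193 genes, 0.517% were called higher and 0.462% lower, so 0 of 26 does not set the neighbours apart. Serpinf2, beside Serpinf1, encodes α2-antiplasmin, the main inhibitor of plasmin, and differed by -0.25 (adjusted p = 0.275).

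Around the members, 38 of 41 genes of the plasminogen system were measured, a list of receptors, substrates, inhibitors and further proteases. On the brightest probe set 2 rose, Igf2r and Fgb, and 0 fell, beside the 0.517% and 0.462% of all genes. In KO 17 were higher and 21 lower, and the median log2 change was -0.04, beside -0.06 over 18193 genes. The list held 7 genes with an unadjusted p under 0.05 that were higher in KO and 2 that were lower, beside 1122 (6.17%) and 2360 (13%) of all 18193 genes. Igf2r, the receptor of IGF-II and mannose-6-phosphate that also binds the urokinase receptor and plasminogen, was at 9.78, 9.83 and 9.98 in KO, against 8.87, 7.73 and 7.70 in WT. Another Igf2r probe set, 1424111_at, was not called. On the brightest, WT1 again lay nearest to KO. The rise was 1.76 in log2 (standard error 0.30, adjusted p = 0.0571), and it was 0.63 under the Gapdh covariate and 0.99 against WT1 alone, not called in either.

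Fgb, a chain of fibrinogen, the precursor of plasmin's substrate fibrin, was at 10.39, 11.97 and 11.64 in KO5, KO6 and KO7, against 9.29, 9.93 and 9.68 in WT. KO5 lay nearest to the WT arrays. The rise was 1.70 in log2 (standard error 0.39, adjusted p = 0.0883). The call was lost when WT1, KO6 or KO7 was left out, at 1.53, 1.38 and 1.55. With the Gapdh covariate the rise was 2.31 and with 4 control transcripts 1.83, called in neither. Unmoderated variances left it uncalled too. Fgg, another fibrinogen chain, differed by 1.05 (adjusted p = 0.178) with overlapping groups. Of the rest with the smallest p, Itgb1, an integrin partner of the urokinase receptor, differed by 0.59 (adjusted p = 0.0741), Lrp1, which takes up complexes of protease and serpin, by 0.57, and Tgfb1, whose latent form plasmin can release, by 0.85. Plg, plasminogen itself, differed by -0.31 (KO mean 4.37, WT mean 4.68), with all values below the median of every array (5.42 to 5.47). Mmp9, a metalloproteinase that plasmin can help to activate, differed by -0.30, at values near those medians (5.05 to 5.52). None of these 6 was called.

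Among 36 other serpin genes 0 rose and 1 fell, beside the 0.517% and 0.462% of all genes, with 9 higher and 27 lower in KO. Their median log2 change was -0.10, beside -0.06 over 18193 genes. By limma, 1 had an unadjusted p under 0.05 and was higher, and 3 were lower, beside 6.17% and 13% of all genes. For most of the 36, both group means lay below the median of every array (5.42 to 5.47), many of them far below. This held for most of the 27 lower in KO as well, such as Serpina1f, at 3.40 in KO and 3.41 in WT. Serpinb1a, an inhibitor of neutrophil proteases, was at 6.92, 7.31 and 6.03 in KO, against 8.44, 8.58 and 7.44 in WT. KO6 came close to WT3 but the groups did not overlap. The change was -1.40 (standard error 0.40, adjusted p = 0.127), which was called. Leaving out WT1, WT2, KO5 or KO7 ended the call, at -1.25, -1.18, -1.48 and -1.03, and so did the Gapdh covariate, at -1.50. So did cyclic loess normalization (-1.36), centring on ribosomal protein genes (-1.32), 4 control transcripts (-1.53) and unmoderated variances. Another Serpinb1a probe set, 1448301_s_at, was not called.

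Serpinb9, an inhibitor of granzyme B, differed by -0.71 on its brightest probe set (adjusted p = 0.226), and another of its probe sets, 1439790_at, fell 2.01-fold (adjusted p = 0.0597). That probe set was at 6.49, 6.30 and 5.94 in KO, against 7.38, 7.37 and 7.01 in WT, with no overlap. Its change sat at the 2-fold limit, and leaving out WT1, WT2 or KO7 ended the call, at -0.94, -0.95 and -0.85. Serpinb6b differed by -0.72 (adjusted p = 0.128) and Serpina3n, an acute-phase serpin, by 0.77 (adjusted p = 0.175), neither called. Serpina3n was called without KO7, at 1.04. Serpina1b, a form of α1-antitrypsin that has near-identical copies, was at 8.39, 9.56 and 6.26 in KO, against 11.20, 10.84 and 8.42 in WT, a difference of -2.08 (adjusted p = 0.294) that could not be assigned to 1 copy. Serpina4-ps1, a pseudogene, differed by -0.22. Lymphocyte markers, lower in KO for 7 of 7 with 0 called, had a log2 summed level of 8.16 to 9.72 in KO and 8.41 to 11.30 in WT, and macrophage markers, lower for 8 of 8 with 0 called, 12.17 to 12.63 in KO and 12.10 to 13.18 in WT. The macrophage sum is weighted to Cd14 (mean 12.08 in KO, 12.32 in WT). Itgam (-0.04) and Cd163 (-0.17), counted among the 8, read below the median of every array. The part of lymphocytes and macrophages in the lower serpin values was not tested.

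**Figure D4:**
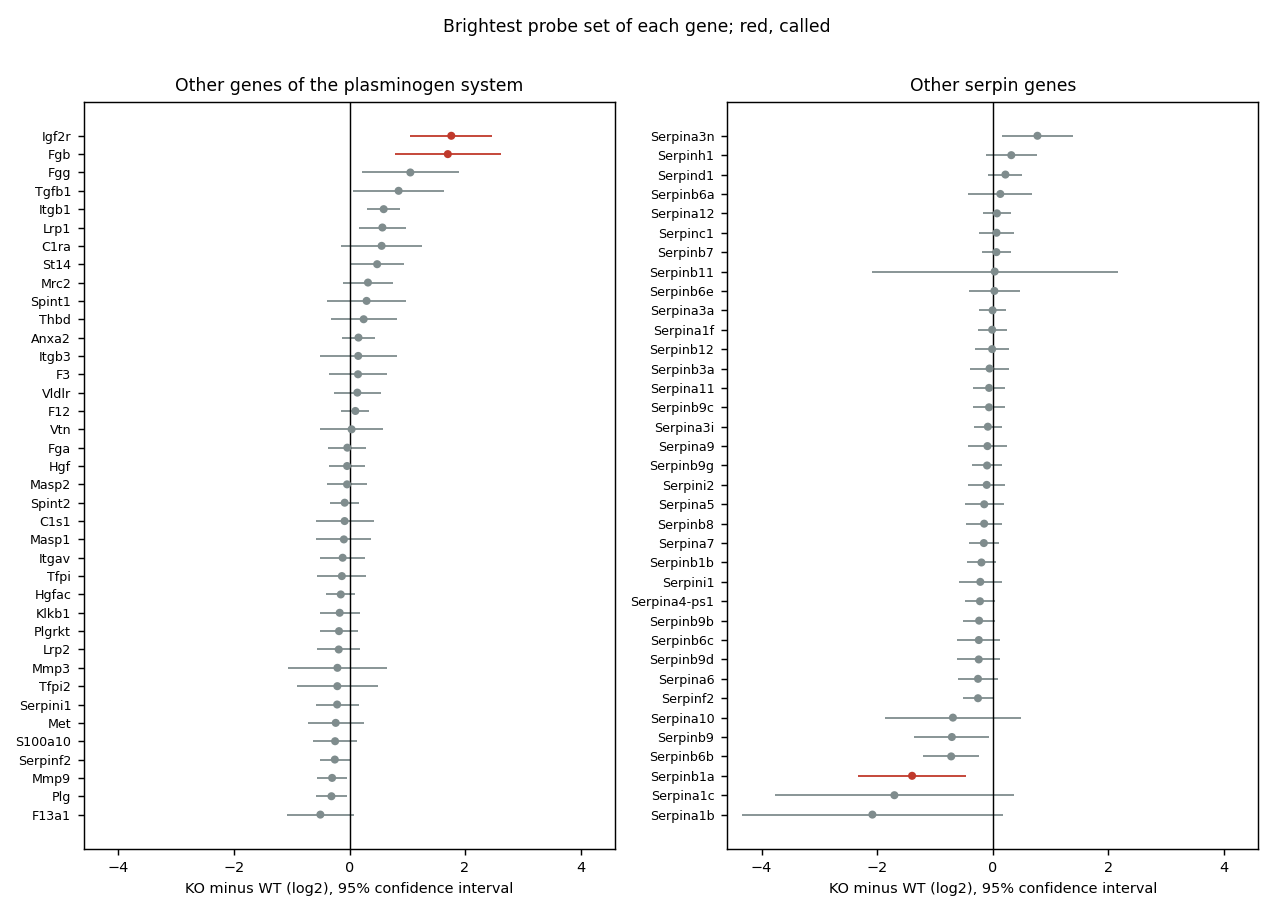
Log2 change, KO minus WT, with its 95% confidence interval (x axis), on the brightest probe set of the 38 measured genes of the plasminogen system (left) and of 36 other serpin genes (right), with called genes in red; Serpinf2 and Serpini1 are in both panels. Igf2r at 1.76 and Fgb at 1.70 stand at the top of the left panel, and Serpinb1a at -1.40 is the called gene on the right.

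The genes whose values over the 6 arrays were most like those of Plau 1422139_at, by Pearson's r, were Gcn1 (r = 0.997), Rgs3, Nek6, Pvr and Rasip1 (r = 0.996), of 5 named by rank. Rasip1, a Ras-interacting protein of endothelium, was at 8.02, 7.81 and 7.55 in KO, against 6.40, 4.51 and 4.88 in WT, and rose by 2.53. Pvr, an adhesion receptor, rose by 1.67, Gcn1, of the response to amino acid shortage, by 1.19, and Rgs3, a regulator of G protein signalling, by 1.14, while Nek6, a mitotic kinase, differed by 0.55 and was not called. In each of these genes WT1 was the WT array nearest to KO, which their choice by likeness to Plau largely fixed. For Serpinf1 1453724_a_at the 5 most alike were Arhgap20 (r = 0.992), Pfkp, Ckb, Wnt7b and Phactr4 (r = 0.989). Arhgap20 rose by 1.18, and the others differed by 0.35 to 0.77 without a call. Each gene in both lists is read by its probe set of highest r, which need not be its brightest. Choice by likeness to a called probe set largely fixed the direction of these genes as well. All arrays share their processing and group structure, so these r values only describe likeness.

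**Figure D5:**
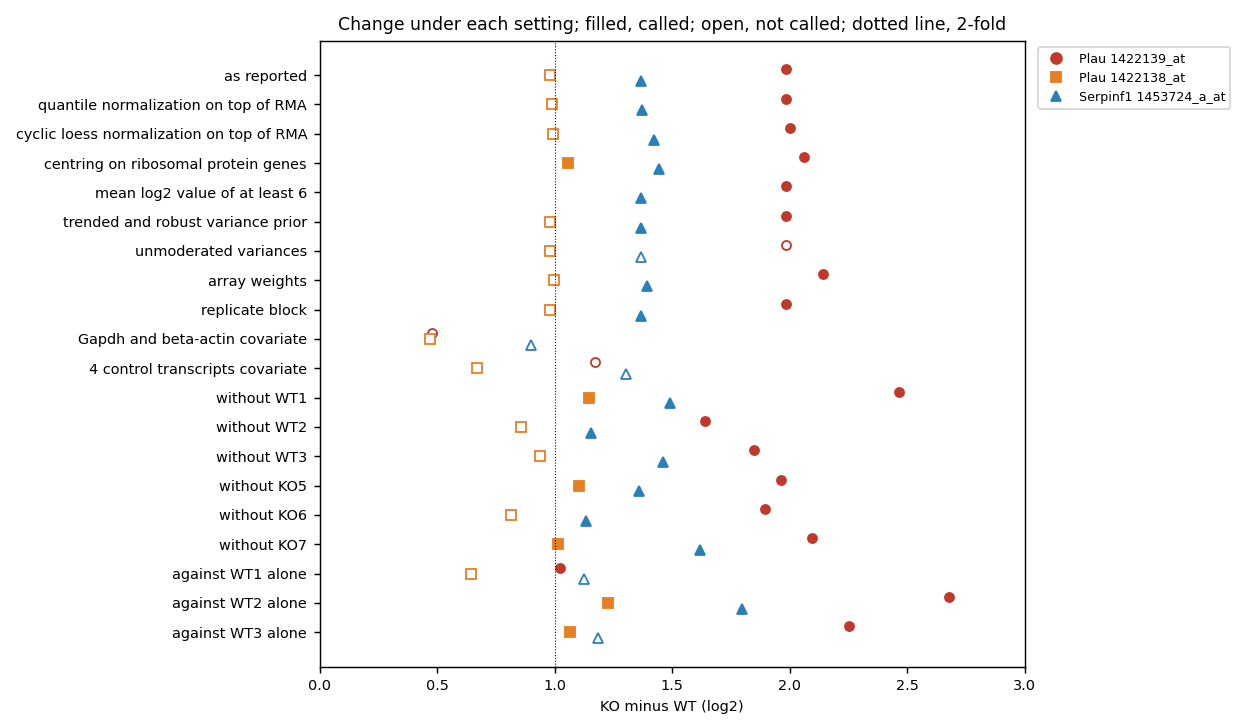
Log2 change, KO minus WT (x axis), of both Plau probe sets and of Serpinf1 1453724_a_at under each way of processing (y axis); filled symbols were called, open ones were not, and the dotted line marks 2-fold. With the Gapdh covariate Plau 1422139_at moves to 0.48 and Serpinf1 to 0.90, and all 3 stay above 0 throughout.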

How the data were processed

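Expression was measured on 6 arrays, 3 KO and 3 WT, grouped by GEO's genotype labels. Per the labels, RMA was used, with no version given in the sources used here, and the values the authors deposited are on the log2 scale. Their methods add the packages simpleaffy (quality checks and normalization) and limma (statistics). These values were used as deposited, with every column mapped to a sample (0 left out). Of 45101 probe sets, 64 Affymetrix controls served only to check RNA quality. Of the other 45037, 34945 carry 1 gene symbol in the platform annotation, 932 several and 9160 none. A gene name in the text always rests on a probe set with 1 symbol.

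KO minus WT was fitted with lmFit and eBayes in limma 3.58.1 (R 4.3.3) on all 6 arrays without covariates, and adjusted p values of probe sets come from it. Single measures were compared by exact permutation over all splits of the arrays into groups. For pairs of probe sets, scipy 1.17.1 adjusted these p values. On simulated data for KO minus WT over 45037 probe sets, the limma step called 91% of changes of 1.2 and 99% of changes of 2.0 on the log2 scale, gave 1 the wrong sign, and called 46 that had not been changed. The simulated noise was independent between probe sets, with no difference in RNA quality between groups. These counts therefore do not estimate false calls in the real data. Named genes were all members, Wwox, each called gene and up to 6 more with the smallest p of both gene lists, and for each called member probe set the 5 genes of highest Pearson r. Serpinb9 1439790_at, the cell type markers named in the text, and neighbouring genes were named after their values were seen. The members and the lists were chosen with earlier results of these data known. Alternatives were other normalizations, centring, filters, priors, array weights, a replicate block, covariates for RNA quality, other limits and each array left out. Comparisons with single WT arrays, which take the spread of the KO arrays for that of the lone array, were added after seeing the data. Python 3.11.15 and matplotlib 3.10.9 drew the figures.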

Additional observations from a re-analysis of the deposited data

How the results depend on the processing

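The count of member probe sets that rose, 2 as reported, was 0 with unmoderated variances, 0 with either RNA quality covariate, 0 at an adjusted p under 0.05 with no fold limit, and 1 against WT1 alone. It was 2 or 3 in every other setting, and every left-out array kept both calls. The count that fell, 0 as reported, was 1 against WT3 alone. Over all probe sets 759 rose and 135 fell. Unmoderated variances gave 250 and 49, the Gapdh and β-actin covariate 137 higher, and the covariate of 4 control transcripts 316 and 318. Leaving out 1 array gave 481 to 1358 higher and 85 to 284 lower. Against WT1, WT2 and WT3 alone the counts were 277, 1239 and 1456 higher and 375, 328 and 505 lower. An adjusted p under 0.05 gave 77 and 23, an unadjusted p under 0.05 gave 4298 and 4388, and with 1.5-fold 2437 and 1348. In the plasminogen system list, 2 higher as reported, the Gapdh and β-actin covariate gave 0 and left-out arrays 1 to 3. Among other serpins, 0 higher and 1 lower as reported, left-out arrays gave 0 to 1 higher and 0 to 2 lower, any probe set of a gene 2 lower, and the covariate 0 lower.

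With the replicate number as a block the members kept 2 calls, the plasminogen system list had 3, the other serpins 2 lower, and all probe sets 775 higher and 147 lower. The numbers are not a pairing in the labels, and arrays of the same number correlated at -0.16, 0.16 and 0.10 in their deviations from the group means, with KO5 closest to WT3 at 0.20, so the replicate block was not used as the main design. No called member changed sign in any of the 19 settings fitted. Probe sets with a mean log2 value under 6, among them Serpinb2, Plau 1422138_at and Plat 1458553_at, had no value under the filter on dim probe sets. With 3 arrays a group, the members without a call are bounded only by their intervals.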
